A study of Rattus norvegicus with 12 samples.

Results

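The 69 axon guidance ligands and receptors described here are the protein-coding genes of the 4 classical families: semaphorins with their plexin and neuropilin receptors (31 genes), Slits with Robo receptors (7 genes), ephrins with Eph receptors (22 genes), and netrins with Unc5 and Dcc receptors (9 genes). They were picked by gene symbol among 23526 genes listed in the table, with earlier results of these data known, and no symbol was repeated. All 69 passed the filter on low counts and were among the 18714 genes tested.

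Guidance ligands are secreted, membrane-tethered or transmembrane proteins that attract or repel growing axons, and the receptors on the growth cone pass the signal to the actin skeleton. In the adult cord the same proteins act on myelin, scar tissue and vessels: several semaphorins, ephrins and Slits restrain regrowing axons, while neuropilins, Robo4 and the Efnb2 and Ephb4 pair also pattern blood vessels. A ligand and its receptor are commonly made by different cells, so a tissue level does not show which cells signal to which.

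RNA was measured by bulk sequencing of rat lumbar cord (segments L3 to 5). The 4 groups of 3 libraries were SCI (in this field, spinal cord injury) at day 3, SCI at day 7, SCI at day 14, and sham at day 0. Sham was taken at day 0 only, so injury and days since surgery cannot be told apart. Strain, sex, age, injury type and injury level, and whether the replicates came from separate animals, are not given in the labels, and p-values therefore measure only the spread between these libraries, which may be technical.

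Library totals were 63010295 to 79072710 counts, of which guidance genes took 0.29 to 0.387%, and the common biological coefficient of variation was 0.432. The libraries of a group were not alike. The 8 neuronal markers summed to 424, 6400 and 335 CPM (counts scaled to a library total of 1000000) at SCI day 3, by replicate, against 8050, 5990 and 8100 CPM in sham, and lay between 4820 and 8250 CPM at days 7 and 14. SCI day 3 replicates 1 and 3 were thus low in neuronal transcripts, and oligodendrocyte markers were abundant in every library. Schwann cell markers summed to 10500, 23900 and 42200 CPM at SCI day 3, against 4530, 38000 and 5890 CPM in sham. Sensory ganglion markers summed to 657, 1210 and 208 CPM at SCI day 14, against 186 to 263 CPM in sham. No marker of these lists was at 0 in every library. In bulk tissue, fewer cells of a type and less RNA per cell cannot be told apart, and the part of these differences in the results below was not tested.

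Per length, semaphorin ligands were the most abundant guidance transcripts of the sham cord. Their 20 genes summed to 318 FPKM (the deposited level per length) of 620 FPKM over all 69, followed by 117 FPKM for the 11 plexins and neuropilins, 60.0 FPKM for the 14 Eph receptors, 36.0 FPKM for Unc5 and Dcc, 35.4 FPKM for ephrins, 22.4 FPKM for Slits, 16.6 FPKM for Robos and 14.6 FPKM for netrins. Sema4d, a transmembrane semaphorin that oligodendrocytes make and that restrains axon growth, was highest at 68.3 ± 55.4 FPKM (SD, n = 3), and Sema7a, a GPI-anchored semaphorin known to promote axon growth, was next at 59.9 ± 9.76 FPKM. These levels did not differ beyond their spread. Plxnb3 was the highest receptor at 33.3 ± 5.81 FPKM. Unc5b, at 20.9 ± 8.62 FPKM, was the highest netrin receptor, against 1.24 ± 0.127 FPKM for Dcc, the attractive one. Ntn5 was lowest at 0.229 ± 0.0987 FPKM, and 5 of the 69 genes were under 1 FPKM. The family sums above grow with the number of genes. The median per gene was also highest for semaphorin ligands, at 11.1 FPKM, followed by 8.34 FPKM for Slits.

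**Figure D1:**
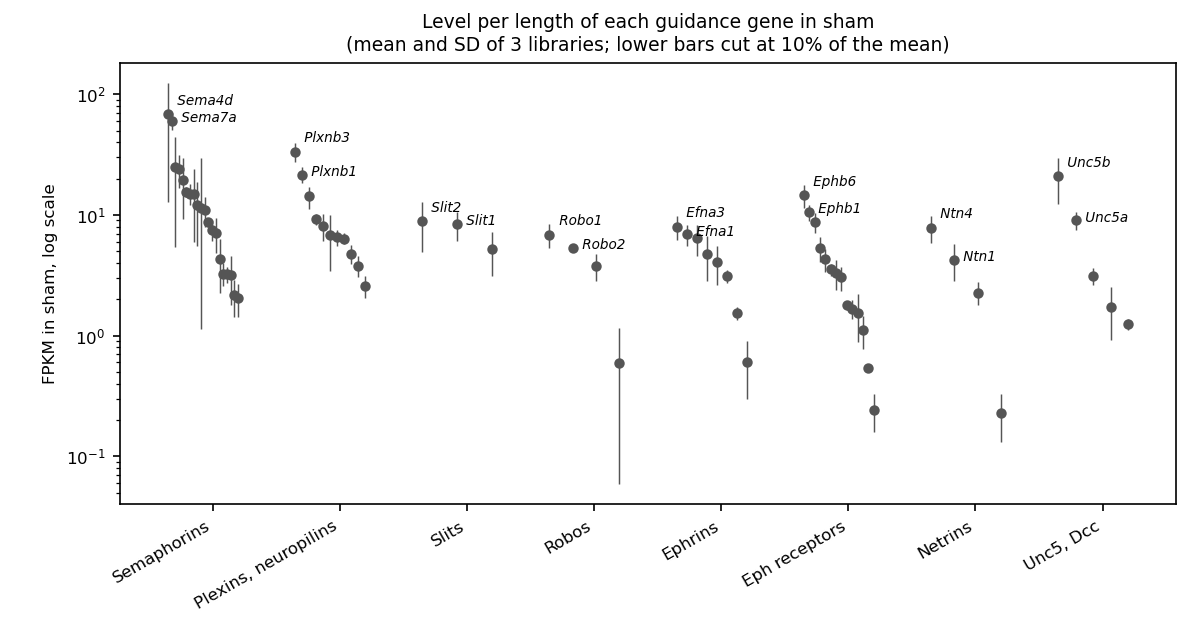
Mean FPKM of each guidance gene in the 3 sham libraries (points, log axis; bars show the SD), by family and role. Semaphorin ligands reach highest, with Sema4d at 68.3 FPKM, and Ntn5 is lowest at 0.229 FPKM.

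At day 3, 4 of the 69 guidance genes differed from sham in edgeR's quasi-likelihood test (adjusted p under 0.05 over all genes tested). Ephb4 and Robo4, receptors known from blood vessels, rose, and 2 genes of the semaphorin family, the ligand Sema4d and the receptor Plxnb3, fell. The share called was 5.8% of guidance genes, against 6.7% of all genes tested, so the count was near the background. By direction, 2 were higher, where the background was 5.5%, and 2 were lower, where it was 1.2%.

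Ephb4 (ENSRNOG00000045952, chromosome 12), a receptor of ephrin-B2 that marks venous endothelium, had 50.6, 23.9 and 44.5 CPM in the 3 SCI day 3 libraries, against 11.4, 18.5 and 12.4 CPM in sham. The groups did not overlap, with SCI day 3 replicate 2 nearest to sham. The log2 fold change was 1.46 ± 0.28 (SE; 2.75-fold; adjusted p = 0.0338). Later libraries lay between 14.9 and 21.6 CPM at day 7 and between 20.1 and 24.0 CPM at day 14.

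Robo4 (ENSRNOG00000049289, chromosome 8), the Robo receptor of endothelial cells, had 37.0, 22.8 and 59.1 CPM at SCI day 3, against 11.6, 19.3 and 15.1 CPM in sham. Its groups did not overlap either, and the same SCI day 3 replicate 2 was the lowest of its group. The log2 fold change was 1.35 ± 0.36 (2.56-fold; adjusted p = 0.0492). Beside these genes, the 7 endothelial markers of 8 that are in the table summed to 828, 339 and 710 CPM at SCI day 3, against 234, 240 and 185 CPM in sham, and the 8 pericyte and smooth muscle markers to 583, 423 and 499 CPM, against 248, 297 and 214 CPM. The part of these markers in the result was not tested.

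Plxnb3 (ENSRNOG00000061731, chromosome X), a plexin-B receptor, had 135, 123 and 112 CPM at SCI day 3, against 253, 180 and 205 CPM in sham. All 3 injured libraries lay below all 3 sham libraries. The log2 fold change was -0.83 ± 0.18 (1.78-fold lower; adjusted p = 0.0378). At day 7 its range was 124 to 190 CPM and at day 14 178 to 197 CPM, both overlapping sham.

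Sema4d (ENSRNOG00000013679, chromosome 17) had 103, 81.1 and 34.4 CPM at SCI day 3, against 780, 130 and 324 CPM in sham. The injured libraries were again all lower, but the sham libraries spread 6.01-fold from lowest to highest. The log2 fold change was -2.57 ± 0.61 (5.93-fold lower; adjusted p = 0.0406), and -1.68 without sham replicate 1, the highest library. The 7 oligodendrocyte markers summed to 32700, 29600 and 39200 CPM at SCI day 3, against 70500, 32500 and 48500 CPM in sham. In sham, replicate 1 was highest and replicate 2 lowest for both the marker sum and Sema4d. At SCI day 3 the orders differed, with replicate 3 highest for the sum and lowest for Sema4d. The markers were not alike there: Mbp, at 29500 CPM, was the highest of its group, and Mog, at 30.8 CPM, the lowest. The part of the oligodendrocyte markers in the result was not tested.

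**Figure D2:**
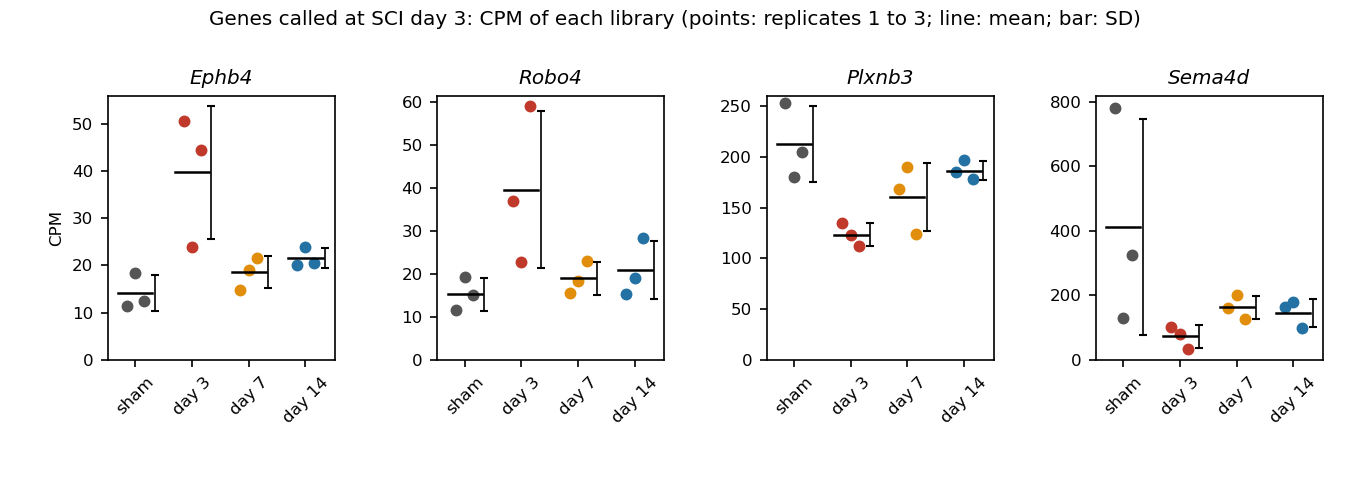
CPM of each library for Ephb4, Robo4, Plxnb3 and Sema4d in sham and at SCI days 3, 7 and 14 (points: libraries; line: mean; bar: SD). At day 3 Ephb4 and Robo4 lie above every sham library and Plxnb3 and Sema4d below, and Sema4d reaches 780 CPM in 1 sham library.

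These calls depended on single libraries. Of 12 fits that each left out 1 library, Ephb4 was called in 6, Plxnb3 in 5, Sema4d in 2 and Robo4 in 1. Without SCI day 3 replicate 2, the library with sham-like neuronal transcripts, 37 guidance genes were called (53.6%, against 37.1% of all genes), 13 of them higher at SCI day 3 (18.8%, against 19.2%) and 24 lower (34.8%, against 18.0%). Without SCI day 3 replicate 1 or 3, sham replicate 1 or 3, SCI day 7 replicate 2 or SCI day 14 replicate 3, none was called. Leaving out SCI day 7 replicate 1 or 3 left 2 calls, and SCI day 14 replicate 1 left 1. With both SCI day 3 replicates 1 and 3 left out, only replicate 2 remained in that group. The log2 fold changes of this 1 library over sham were 0.72 for Ephb4, 0.53 for Robo4, -0.84 for Plxnb3 and -2.41 for Sema4d. DESeq2 called 25 guidance genes at day 3 (36.2%, against 27.3% of all genes) and limma voom with sample weights 35 (50.7%, against 33.3%).

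The promoters of the 3 called genes with an entry are shown because Ephb4 and Robo4 rose together; each is the 250 bases before the gene's start in the RefSeq annotation of GRCr8, where 55 of the 69 genes had a window. Capitals mark GGAA on either strand (TTCC on the printed one), the core of ETS-factor sites. The windows are chr12:24988389-24988638 on the minus strand for Ephb4, chr8:45308489-45308738 on the plus strand for Robo4 and chrX:156646624-156646873 on the plus strand for Plxnb3.
Ephb4: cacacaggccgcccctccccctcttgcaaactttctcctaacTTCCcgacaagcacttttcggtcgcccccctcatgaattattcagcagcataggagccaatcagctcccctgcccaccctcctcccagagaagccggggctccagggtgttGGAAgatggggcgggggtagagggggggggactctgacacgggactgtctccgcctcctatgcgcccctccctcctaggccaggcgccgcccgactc
Robo4: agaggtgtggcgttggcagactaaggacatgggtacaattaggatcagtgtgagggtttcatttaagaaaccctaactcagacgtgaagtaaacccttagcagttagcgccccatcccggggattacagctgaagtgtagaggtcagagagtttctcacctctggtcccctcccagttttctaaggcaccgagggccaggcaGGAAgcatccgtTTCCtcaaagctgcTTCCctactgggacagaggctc
Plxnb3: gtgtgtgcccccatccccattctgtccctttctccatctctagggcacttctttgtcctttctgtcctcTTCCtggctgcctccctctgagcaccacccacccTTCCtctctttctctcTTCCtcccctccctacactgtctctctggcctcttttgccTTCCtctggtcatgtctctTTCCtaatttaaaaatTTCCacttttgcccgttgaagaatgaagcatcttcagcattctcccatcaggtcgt
GGAA occurred 2 times in the Ephb4 window, 3 times in the Robo4 window and 6 times in the Plxnb3 window. It was in 93.2% of all 33469 windows and in 90.9% of those of guidance genes, so its presence does not set these genes apart. The GC box GGGCGG, on either strand, occurred 3 times for Ephb4, sharing no letters with its GGAA matches, and in neither of the others, with 30.5% of all windows and 54.5% of those of guidance genes holding it. The median GC content was 62.8% in the windows of guidance genes and 51.2% in all windows, and its part in the GC box share was not tested. A match is a description of the letters.

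Sema4d was the only one of 20 semaphorin ligands called at day 3. The median log2 fold change was 0.91 over the 7 class 3 genes, which are secreted, and -0.68 over the 6 class 4 genes, which are transmembrane, beside 0.03 over all genes tested. For all 20 semaphorin ligands it was 0.08 at day 3, -0.14 at day 7 and 0.04 at day 14, signs that turned under 4, 1 and 3 of 22 alternatives. At day 3, class 3 had 4 genes higher and 3 lower, and class 4 had 2 higher and 4 lower. The value of Sema3b, among the 4 higher genes of class 3, ran from -2.88 to 5.51 when single libraries were left out. With the other class 3 genes as they were, a Sema3b value below 0 turns the sign of the class 3 median. The difference between the classes was not tested.

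Sema3c, a secreted ligand of both neuropilins, had 111, 61.4 and 92.3 CPM at SCI day 3, against 47.0, 47.7 and 40.5 CPM in sham (log2 fold change 0.93 ± 0.27, adjusted p = 0.0591). Sema3g had 87.8, 35.8 and 63.8 CPM against 17.7, 34.8 and 28.2 CPM in sham (1.18 ± 0.38, adjusted p = 0.0711). Sema3f, a repellent that acts through Nrp2, had 21.0, 16.4 and 29.6 CPM against 9.71, 12.5 and 12.7 CPM in sham (0.91 ± 0.29, adjusted p = 0.0716). All 3 had groups that did not overlap, and none passed the threshold. Sema3a, the classical repellent acting through Nrp1 and known from the scar, had 13.8, 8.12 and 5.26 CPM at SCI day 3, against 25.7, 10.1 and 18.6 CPM in sham, with overlapping groups (-1.06 ± 0.43, adjusted p = 0.113).

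Sema7a had 493, 193 and 240 CPM at SCI day 3, against 190, 136 and 164 CPM in sham. The groups did not overlap, with SCI day 3 replicate 1 far above the others, and the log2 fold change of 0.87 ± 0.33 missed the threshold (adjusted p = 0.101). Sema6a, a transmembrane ligand of plexin-As, was at 94.2, 68.2 and 59.8 CPM at SCI day 3 against 105, 58.6 and 81.2 CPM in sham, an overlap throughout (-0.19 ± 0.22, adjusted p = 0.562). Sema4a and Sema4f had their lowest libraries in SCI day 3 replicates 1 and 3. Sema5b spread 19.1-fold within SCI day 3, at 70.7, 11 and 3.71 CPM.

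Among semaphorin receptors, both neuropilins and Plxnb2 lay above the sham range in every SCI day 3 library, while Plxnb3 and Plxna3 lay below it. Plxnb2, a receptor of class 4 semaphorins, had 309, 135 and 188 CPM at SCI day 3, against 82.3, 118 and 86.4 CPM in sham (log2 fold change 1.1 ± 0.29, adjusted p = 0.0505). It stayed above the sham range at day 7, with 162, 240 and 181 CPM, and at day 14, with 135, 218 and 173 CPM. Its log2 fold changes there were 0.98 ± 0.29 (adjusted p = 0.318) and 0.84 ± 0.29 (adjusted p = 0.602), so no day passed the test. Microglia and macrophage markers summed to 788, 187 and 215 CPM at SCI day 3, 668, 1080 and 506 CPM at day 7 and 222, 864 and 803 CPM at day 14, against 226, 150 and 200 CPM in sham, and their part was not tested.

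Nrp1, the co-receptor for Sema3a and for VEGF, had 67.7, 37.9 and 51.7 CPM at SCI day 3, against 35.8, 29.2 and 33.6 CPM in sham (0.63 ± 0.19, adjusted p = 0.063). At day 7 it had 53.6, 55.3 and 47.3 CPM, again above every sham library. Nrp2, the co-receptor for Sema3f, had 74.5, 60.9 and 66.8 CPM at SCI day 3, against 32.9, 45.8 and 34.8 CPM in sham (0.8 ± 0.27, adjusted p = 0.0784). Plxnd1, a plexin of vessels, had 99.5, 57.4 and 123 CPM against 38.0, 76.2 and 32.4 CPM in sham, where sham replicate 2 exceeded an injured library (0.91 ± 0.41, adjusted p = 0.139).

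No plexin-A, the plexins that pair with neuropilins or bind class 6 semaphorins directly, passed the test. Plxna1 had 95.5, 95.7 and 84.6 CPM at SCI day 3, against 80.4, 129 and 96.0 CPM in sham, and the groups overlapped (-0.18 ± 0.21, adjusted p = 0.553). Plxna4 had 11.1, 43.2 and 7.20 CPM at SCI day 3, against 51.2, 41.2 and 61.1 CPM in sham (-1.37 ± 0.53, adjusted p = 0.104). Only the libraries low in neuronal transcripts, SCI day 3 replicates 1 and 3, were low for Plxna4, and replicate 2 lay inside the sham range. Plxnb1, the Sema4d receptor, had 74.0, 183 and 149 CPM against 163, 216 and 188 CPM in sham (-0.51 ± 0.29, adjusted p = 0.227). Plxnc1, the Sema7a receptor, had 13.1, 16 and 9.49 CPM against 15.9, 21.5 and 23.8 CPM in sham (-0.7 ± 0.27, adjusted p = 0.0977). Over all 11 receptors the median log2 fold change was -0.18 at day 3, -0.08 at day 7 and 0.01 at day 14, where the sign turned under 5 of 22 alternatives.

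No Slit passed the test at day 3. Slit1, a secreted repellent like the other Slits, had 10.4, 41.0 and 5.62 CPM at SCI day 3, against 40.0, 46.8 and 66.3 CPM in sham (log2 fold change -1.47 ± 0.61, adjusted p = 0.117). Slit2 had 94.1, 98.3 and 207 CPM at SCI day 3, against 57.1, 119 and 59.6 CPM in sham (0.75 ± 0.48, adjusted p = 0.282). Slit3 had 33.9, 41.9 and 75.7 CPM against 20.6, 41.6 and 23.7 CPM in sham (0.8 ± 0.48, adjusted p = 0.248). SCI day 3 replicate 3 and sham replicate 2 were the highest libraries of their groups for both Slit2 and Slit3, and the groups of all 3 Slits overlapped. The 7 Schwann cell markers, at 42200 and 38000 CPM, and the 8 fibroblast and meninges markers, at 6440 and 3450 CPM, were likewise highest of their groups there, and their part was not tested.

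Robo1, which with Robo2 carries Slit repulsion in axons, had 31.9, 45.6 and 19.4 CPM at SCI day 3, against 68.3, 44.7 and 68.5 CPM in sham (-0.95 ± 0.28, adjusted p = 0.0584). Sham replicate 2 overlapped the injured libraries. Robo2 had 63.8, 63.2 and 30.3 CPM against 67.3, 65.6 and 71.6 CPM in sham, with no overlap but with 2 libraries just under the sham range (-0.43 ± 0.25, adjusted p = 0.239). Robo3, the receptor of commissural neurons, spread 8.94-fold within sham. With Robo4 the only call, 1 of 7 genes of this family rose and none fell at day 3, beside 5.5% and 1.2% of all genes. None was called at days 7 and 14, beside 0.016% of all genes on each day.

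None of the 8 ephrins passed the threshold at day 3, when 4 had positive and 4 negative log2 fold changes. Efnb2, the arterial ephrin that binds Ephb4, had 6.73, 5.75 and 6.77 CPM at SCI day 3, against 3.39, 4.25 and 3.56 CPM in sham (log2 fold change 0.75 ± 0.2, adjusted p = 0.0533). It was above every sham library at each later day too, with 4.44, 4.59 and 4.98 CPM at day 7 and 6.61, 7.07 and 5.09 CPM at day 14 (adjusted p = 0.706 and 0.587). Efnb1 had 30.5, 23.5 and 44.5 CPM at SCI day 3, against 12.7, 23.6 and 12 CPM in sham (1.01 ± 0.45, adjusted p = 0.136), where sham replicate 2 met the lowest injured library. Efnb3, the midline ligand that repels corticospinal axons through Epha4, had 4.14, 17.7 and 3.61 CPM against 14.8, 21.0 and 26.5 CPM in sham (-1.33 ± 0.53, adjusted p = 0.111), and only SCI day 3 replicate 2 reached the sham range.

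Efna1, which binds Epha2, had 34.4, 14.9 and 21.5 CPM at SCI day 3, against 16.1, 10.9 and 13.4 CPM in sham (0.76 ± 0.29, adjusted p = 0.0973), and the groups overlapped through SCI day 3 replicate 2. Efna5, a repellent of growing axons, had 0.708, 4.98 and 1.36 CPM at SCI day 3, against 7.25, 6.05 and 7.72 CPM in sham (-1.62 ± 0.59, adjusted p = 0.0914). Its injured libraries were all below sham, and replicate 2 was the nearest. The same held for Efna3, with 2.06, 13.3 and 1.43 CPM against 17.8, 17.2 and 25.1 CPM in sham (-1.88 ± 0.73, adjusted p = 0.104).

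EphA receptors, which bind ephrin-As, had 8 of 9 log2 fold changes below 0 at day 3, beside 8999 of all 18714 genes tested. Their median log2 fold change was -1.03, while the 5 EphB receptors had a median of -0.2. No EphA gene passed the threshold, and the difference between the classes was not tested. Epha4, a main receptor of axon repulsion in the cord, had 12.5, 29.9 and 7.58 CPM at SCI day 3, against 43.2, 27.1 and 34.8 CPM in sham (-1.12 ± 0.43, adjusted p = 0.0994). SCI day 3 replicate 2 lay inside the sham range. Groups were lower without overlap in 4 of the 9 EphA receptors, beside 15.9% of all genes. They were Epha6, Epha8 and Epha10, with log2 fold changes of -1.88, -1.38 and -1.9, and Epha7. Epha7 had 1.39 to 7.36 CPM at SCI day 3, against 8.06 to 11.3 CPM in sham. Epha2 went the other way, with 15.6, 12 and 32.3 CPM at SCI day 3, against 5.33, 9.98 and 4.70 CPM in sham, again without overlap (1.57 ± 0.43, adjusted p = 0.0534).

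Among EphB receptors other than Ephb4, Ephb1 had 36.3, 35.9 and 22.2 CPM at SCI day 3, against 43.0, 49.5 and 58.5 CPM in sham, without overlap (-0.72 ± 0.21, adjusted p = 0.0581). Ephb2 had 8.28, 10.2 and 13.1 CPM against 12.2, 11.5 and 14.3 CPM in sham, with overlap (-0.29 ± 0.26, adjusted p = 0.437). Ephb6, a member without kinase activity, spread from 18.0 to 85.0 CPM within SCI day 3 and covered the sham values of 51.3, 76.0 and 56.6 CPM (-0.2 ± 0.48, adjusted p = 0.789). The part of the low neuronal markers of SCI day 3 replicates 1 and 3 in these values was not tested. Over all 14 Eph receptors, the median log2 fold change was -0.84 at day 3, -0.21 at day 7 and -0.25 at day 14.

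**Figure D3:**
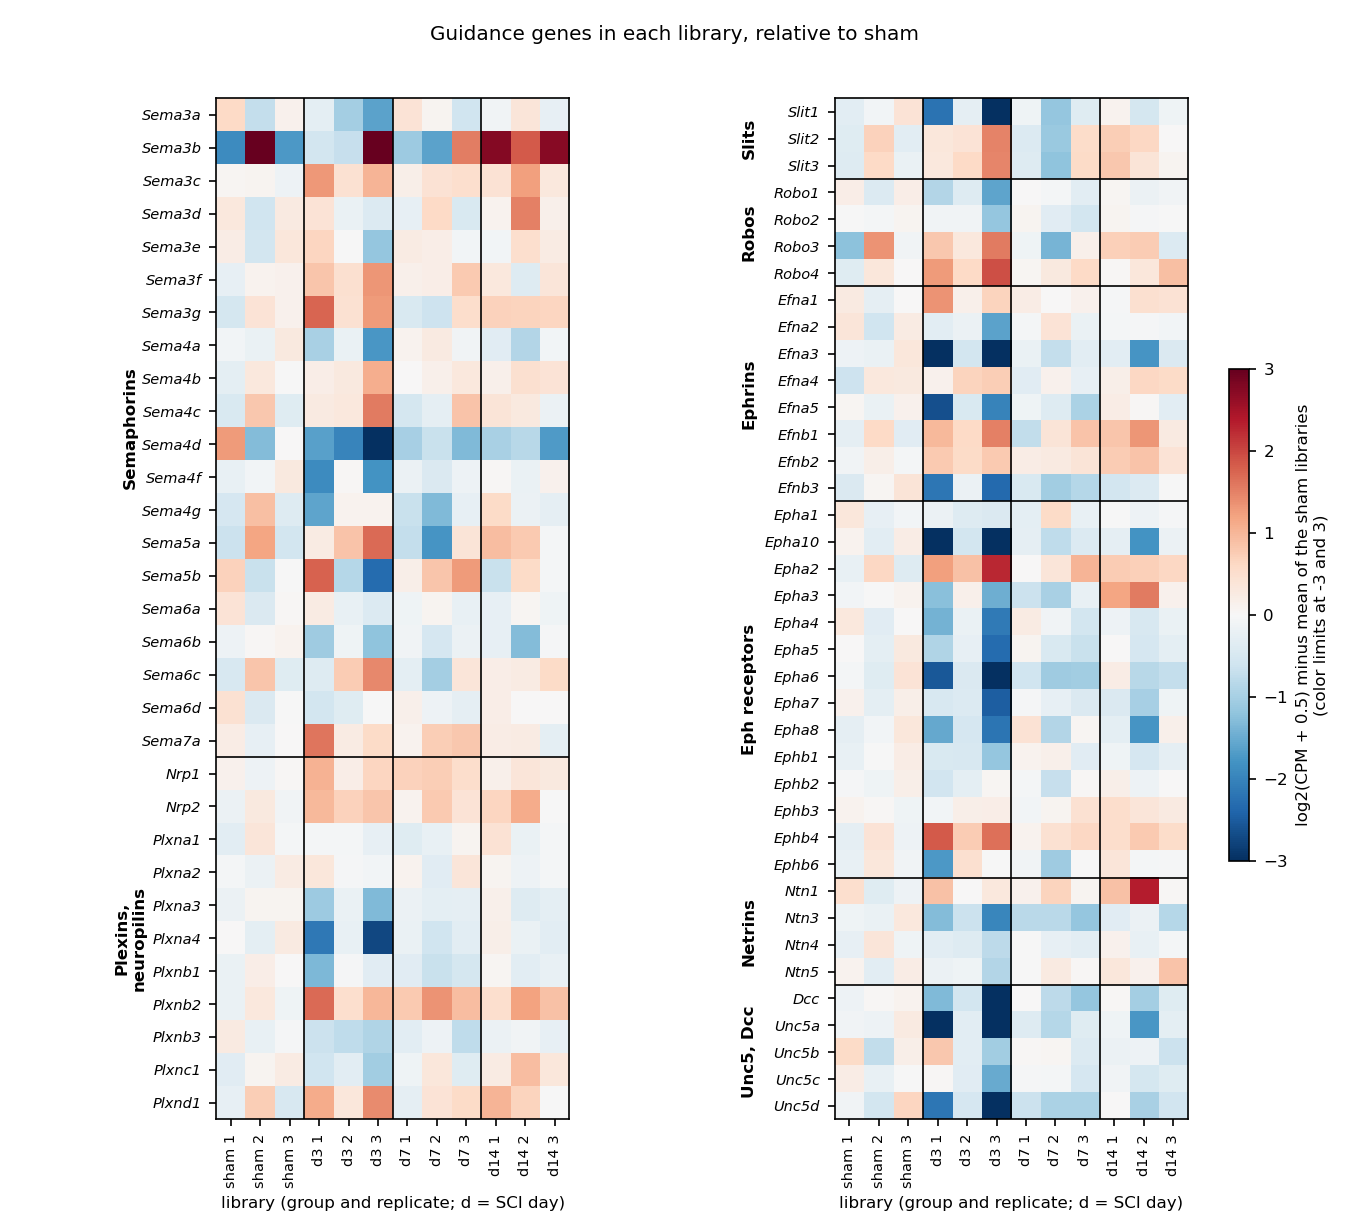
Each guidance gene (rows, by family and role) in each of the 12 libraries (columns: sham, then SCI days 3, 7 and 14), as log2(CPM + 0.5) minus the mean of the sham libraries. SCI day 3 replicates 1 and 3 are low for many Eph, Unc5 and Dcc genes, and SCI day 3 replicate 2 is nearer to sham.

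Netrin receptors had log2 fold changes below 0 in all 5 genes on each day, and no gene was called. Of all 18714 genes tested, 8999, 9837 and 9140 were below 0 at days 3, 7 and 14. The medians of the 5 genes were -1.55 at day 3, -0.58 at day 7 and -0.47 at day 14. Over the 22 alternatives they ran from -2.44 to -0.47, from -0.68 to -0.39 and from -0.78 to -0.31. Dcc had 2.47, 4.58 and 0.364 CPM at SCI day 3, against 6.16, 7.14 and 7.52 CPM in sham, without overlap (-1.55 ± 0.69, adjusted p = 0.14). Unc5a, a repulsive netrin receptor, had 3.26, 29.7 and 3.07 CPM against 34.3, 33.5 and 44.8 CPM in sham (-1.69 ± 0.78, adjusted p = 0.148). Replicates 1 and 3 of SCI day 3, the libraries low in neuronal markers, carried the lowest values of both. Unc5b, the Unc5 also made by vessels, had 216, 98.7 and 59.0 CPM at SCI day 3, against 182, 73.9 and 138 CPM in sham, with full overlap (-0.14 ± 0.44, adjusted p = 0.837). Unc5c had 32.9, 25.4 and 11.1 CPM against 38.1, 27.6 and 32.2 CPM in sham, with overlap (-0.55 ± 0.32, adjusted p = 0.231), and Unc5d had 0.847, 3.78 and 0.148 CPM against 5.16, 3.67 and 9.03 CPM (-1.96 ± 0.85, adjusted p = 0.13).

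Of the netrin ligands, Ntn3 had 2, 3.43 and 1.09 CPM at SCI day 3, against 5.14, 4.88 and 7.16 CPM in sham, without overlap (-1.45 ± 0.4, adjusted p = 0.0531). At day 7 it had 3.02, 3 and 2.23 CPM, all still below sham (-1.1 ± 0.39, adjusted p = 0.393). Ntn4, a laminin-related netrin of basement membranes, had 13.3, 12.7 and 9.44 CPM at SCI day 3, against 14.0, 21.7 and 15.3 CPM in sham (-0.56 ± 0.2, adjusted p = 0.0905). Ntn1, the classical attractant through Dcc and repellent through Unc5, had 47.4, 25.5 and 31.6 CPM at SCI day 3, against 36.6, 19.6 and 23.0 CPM in sham, with overlap (0.35 ± 0.51, adjusted p = 0.65). At SCI day 14 it had 47.6, 132 and 25.9 CPM, and replicate 2 held the highest value of the 12 libraries, which is also the library highest in sensory ganglion markers, whose part was not tested. Its log2 fold change at day 14 was 1.34 ± 0.52 (adjusted p = 0.629).

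**Figure D4:**
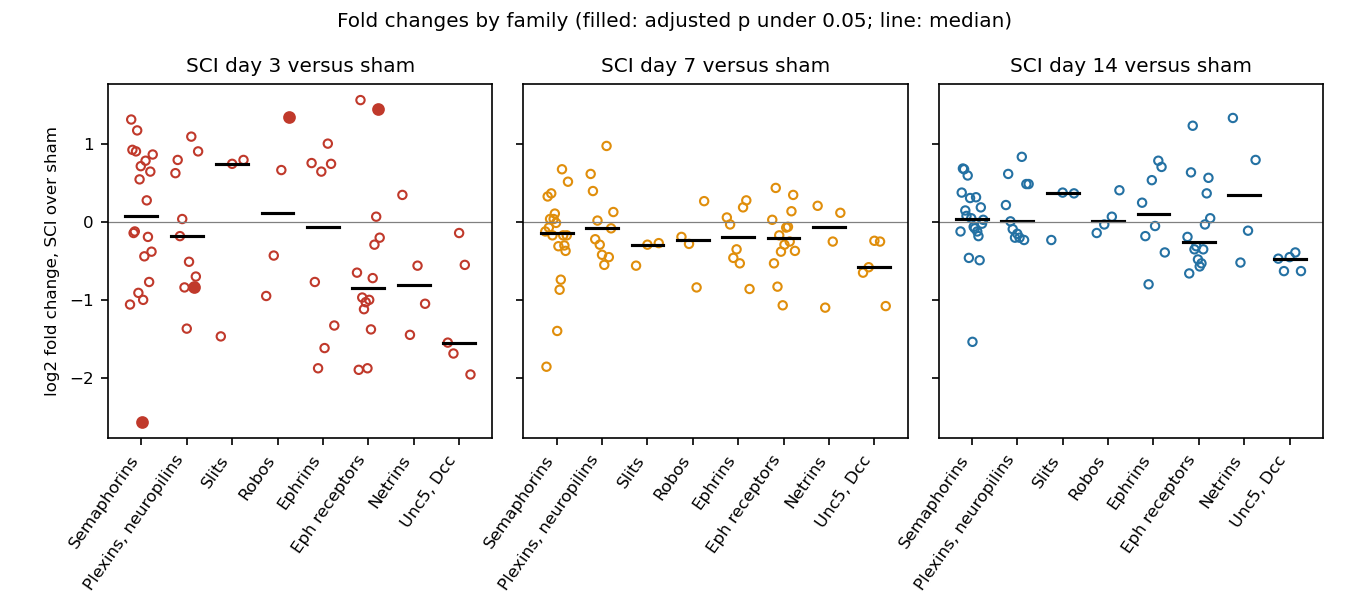
Log2 fold change over sham of each guidance gene (points; filled where adjusted p was under 0.05) at SCI days 3, 7 and 14, by family and role, with the median as a line. Netrin receptors lie below 0 on each day, with a median of -1.55 at day 3, and the filled points are Ephb4, Robo4, Plxnb3 and Sema4d at day 3.

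Several guidance genes shared their extreme libraries. In 19 of the 69 genes the 2 lowest of all 12 libraries were SCI day 3 replicates 1 and 3, which is 27.5% of the genes, against 17.1% of all genes tested. They were 5 EphA receptors, 3 netrin receptors (Dcc, Unc5a and Unc5d), 3 ephrins, 3 plexins, and Ntn3, Robo1, Sema4a, Sema4f and Slit1. In 7 genes the same pair was highest (10.1%, against 15.7% of all genes): Efna1, Epha2, Ephb4, Plxnd1, Robo4, Sema3f and Sema3g. In 4 genes (Robo3, Sema3b, Sema5a and Sema6c, or 5.8%, against 2.5% of all genes) SCI day 3 replicate 3 and sham replicate 2 were highest, and Sema3b, a secreted class 3 semaphorin, was at 5.24, 4.75 and 250 CPM at SCI day 3, against 1.78, 103 and 2.04 CPM in sham. The Schwann cell marker sum was 42200 and 38000 CPM in those 2 libraries, and its part was not tested.

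**Figure D5:**
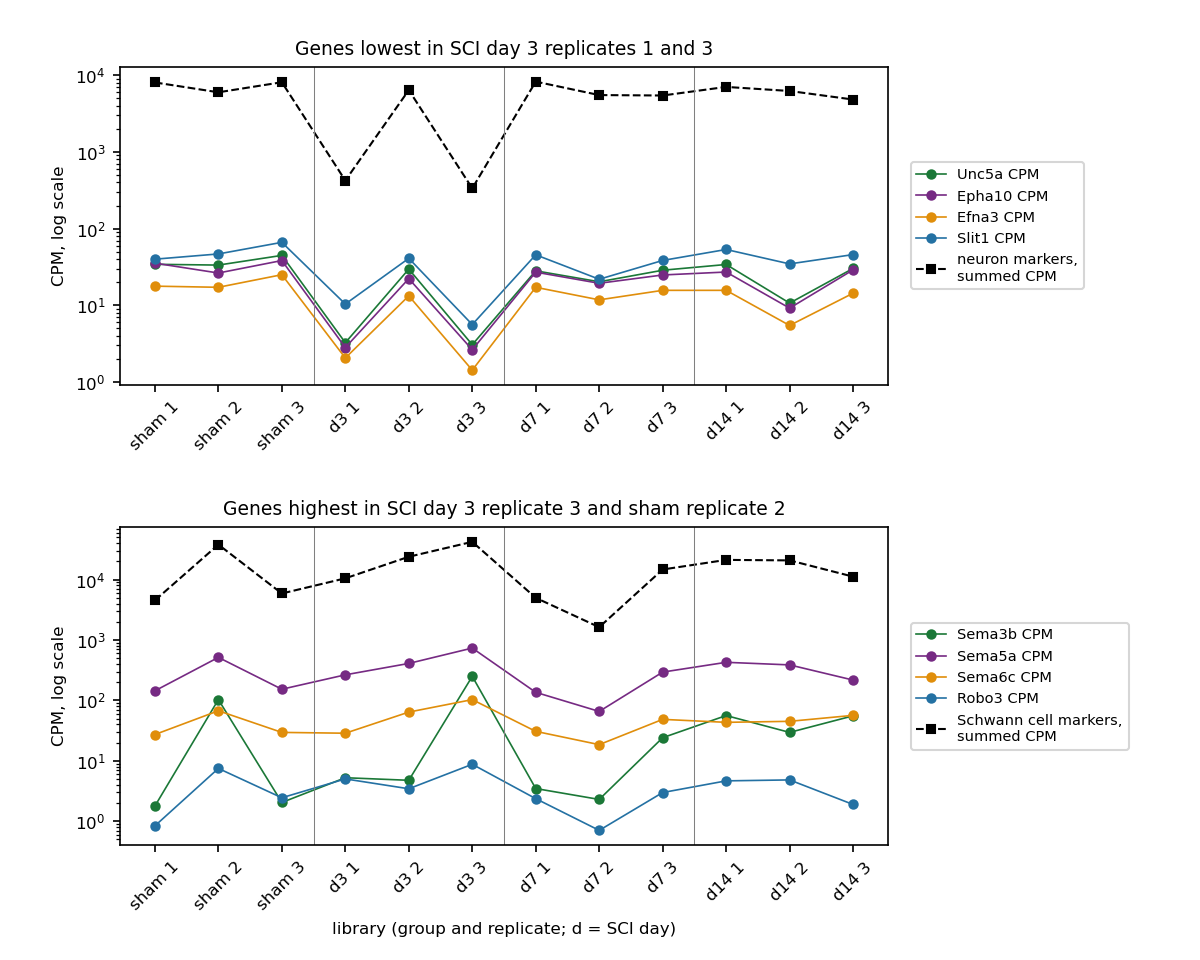
CPM of guidance genes (lines with dots, log axis) in each of the 12 libraries, with the summed CPM of a marker list (dashed, squares): neuronal markers above, Schwann cell markers below. SCI day 3 replicates 1 and 3 are at 424 and 335 CPM for neuronal markers, and Schwann cell markers peak at 42200 CPM in SCI day 3 replicate 3 and at 38000 CPM in sham replicate 2.

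At unadjusted p under 0.05, 38 of 69 guidance genes passed at day 3 (14 higher and 24 lower), which is 55.1%, against 35.3% of all genes. For the higher ones the share was 20.3% against 20.6%, and for the lower ones 34.8% against 14.6%. Groups did not overlap in 11 higher genes (15.9%, against 21.2% of all genes) and 15 lower ones (21.7%, against 15.9%). Over all 69 genes the median log2 fold change was -0.38, beside 0.03 over all genes tested, and it kept its sign under the 22 alternatives, from -0.59 to -0.25.

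No guidance gene passed at day 7 or day 14, on days when the background was 0.016% of all genes, or 3 genes, at each. At unadjusted p under 0.05, 5 genes passed at day 7 (7.25%, against 9.89% of all genes): Plxnb2 and Nrp1 were higher (2.9%, against 7.76%) and Ntn3, Plxnb3 and Sema4d lower (4.35%, against 2.13%). At day 14, 6 genes did (8.7%, against 7.4%): Efnb2, Plxnb2, Sema3c, Ntn1 and Nrp2 were higher (7.25%, against 6.43%) and Sema4d lower (1.45%, against 0.967%). Sema4d had 160, 200 and 128 CPM at day 7 and 163, 180 and 97.6 CPM at day 14, each overlapping sham only through its lowest library of 130 CPM. DESeq2 called none at day 7, against 2.71% of all genes, and Efnb2 at day 14 (1.45%, against 1.09%). Limma voom called Nrp1 and Plxnb2 at day 7 (2.9%, against 1.47%) and none at day 14, against 0.0481%.

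Groups did not overlap at day 7 in 5 higher genes (7.25%, against 13.9% of all genes) and 8 lower ones (11.6%, against 9.73%). At day 14 they did not overlap in 10 higher genes (14.5%, against 11.0%) and in 1 lower gene, Efna3 (1.45%, against 4.77%). The 10 included Ephb4, Efnb2, Epha2 and Nrp1 and also Epha3, an EphA receptor with 4.81, 6.38 and 2.05 CPM at SCI day 14, against 1.70, 1.80 and 1.98 CPM in sham (1.24 ± 0.66, adjusted p = 0.754). SCI day 14 replicates 1 and 2, where Epha3 was high, were also highest in sensory ganglion markers (657 and 1210 CPM). The part of these markers was not tested. Over all 69 genes the median log2 fold change was -0.22 at day 7, a sign kept under the 22 alternatives, and -0.03 at day 14, where it turned under 3 of them (-0.17 to 0.02). The 3 comparisons share the sham libraries.

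Between SCI days edgeR called no guidance gene, and none of all genes tested either (0.0%). At unadjusted p under 0.05, 15 guidance genes passed for day 7 against day 3 (21.7%, against 14.8% of all genes), 6 of them higher at day 7 (8.7%, against 5.33%) and 9 lower (13.0%, against 9.48%). For day 14 against day 3, 13 passed (18.8%, against 17.9%), 9 of them higher at day 14 (13.0%, against 6.83%) and 4 lower (5.8%, against 11.0%). For day 14 against day 7, 1 passed and was higher (1.45%, against 3.67% in either direction and 2.24% higher). Groups did not overlap in 5 higher (7.25%, against 6.0%) and 3 lower genes (4.35%, against 7.76%) for day 7 against day 3. The same counts were 12 (17.4%, against 6.78%) and 3 (4.35%, against 9.62%) for day 14 against day 3, and 6 (8.7%, against 5.77%) and 1 (1.45%, against 4.26%) for day 14 against day 7. DESeq2 called 1 for day 7 against day 3 (1.45%, against 1.23%), 4 for day 14 against day 3 (5.8%, against 5.86%) and 0 for day 14 against day 7, against 0.267% of all genes. Limma voom called none, and at most 0.00534% of all genes. With the 4 groups tested together, no guidance gene passed (background 0.0427%), 16 had unadjusted p under 0.05 (23.2%, against 19.5%), DESeq2 called 13 (18.8%, against 14.1%) and limma voom 17 (24.6%, against 16.7%). For the mean of all SCI days against sham, none passed (background 0.0481%), 12 had unadjusted p under 0.05 (17.4%, against 19.1%), DESeq2 called 6 (8.7%, against 7.96%) and limma voom 31 (44.9%, against 30.5%).

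Other genes of the pathway were read from 3 lists, beside all genes tested, of which 5.5% rose and 1.2% fell at day 3. At day 3, 5 of 51 signalling genes tested rose and none fell (median log2 fold change 0.02): Rac1 (0.88 ± 0.17, adjusted p = 0.0338) and Rock2 (0.64 ± 0.15, adjusted p = 0.0391), a GTPase and a kinase of the growth cone's actin pathways, and Vasp, Limk2 and Srgap1. Of 26 co-receptors and other guidance ligands, 3 rose and none fell (median 0.12): Met (2.36 ± 0.6, adjusted p = 0.0463), the cell adhesion gene Chl1 (1.77 ± 0.38, adjusted p = 0.0369) and the VEGF receptor Flt1 (1.12 ± 0.25, adjusted p = 0.037), which is also in the endothelial list. Of 17 myelin and matrix inhibitors of axon growth and receptors for them, 2 rose, the Nogo receptor homologue Rtn4rl2 (4.12 ± 0.89, adjusted p = 0.0369) and the matrix protein Tnc (3.32 ± 0.84, adjusted p = 0.0455), and 1 fell, the proteoglycan Bcan (-2.26 ± 0.59, adjusted p = 0.0477). The median of that list was -0.5. No gene of the 3 lists was called at day 7 or day 14.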

How the data were processed

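RNA was measured in 12 rat lumbar cord libraries, 3 per group, from total RNA with a SMARTer mRNA-Seq kit, per the labels. Per the file headers, the table's deposited count columns hold unnormalised reads per gene. Its FPKM columns, deposited by the authors, are scaled for gene length and library total as the header names imply, and followed the counts within 0.905% over 9502 genes. FPKM serves here only to compare levels between genes and to sum them by family. No source used here names the aligner, the counter or strand use, so overlapping and antisense genes are uncertain. GRCm38 and mm10, both mouse builds, stand in the submitters' processing notes, yet identifiers are rat Ensembl ones. The chromosome printed beside a gene identifier is taken from the table, and no positions are.

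Library totals were 63010295 to 79072710 counts. No library copied another (chi-square per gene at least 63.3). Genes were filtered with filterByExpr by group, which removed 4812, and scaled by TMM. edgeR 4.0.16 under R 4.3.3 fitted 1 mean per group to all 12 libraries (8 residual degrees of freedom), with quasi-likelihood tests and Benjamini-Hochberg adjustment over 18714 genes (limit 0.05). The SE equals the absolute log2 value over the root of the F statistic and so restates the test. The fit was tested on simulated data. CPM is scaled to 1000000 counts of the library total, and an SD is over 3 libraries. DESeq2 1.42.0 and limma 3.58.1 (voom) were alternatives, and 22 alternatives were run in all. Genes called, fixed candidates, and in each family and role the 2 with the smallest p over the 4 groups and the 2 with the highest FPKM are given with values, as is any gene with a library that stands apart. The members, marker lists and pathway lists were chosen with earlier results of these data known.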

Additional observations from a re-analysis of the deposited data

Results flagged for a closer look

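3 genes were picked out because every library of one SCI day lay above the sham mean and every library of another below it. None of these differences between days passed edgeR's adjusted test. Epha3 had 4.81, 6.38 and 2.05 CPM at SCI day 14, against 0.992, 0.677 and 1.48 CPM at SCI day 7, a log2 difference of 2.07 ± 0.68 (adjusted p = 1.0). Its 2 higher SCI day 14 libraries, replicates 1 and 2, were also those high in sensory ganglion markers, whose part was not tested. Ntn5 had 0.662, 0.492 and 1.16 CPM at SCI day 14, against 0.304, 0.342 and 0.0 CPM at SCI day 3, a log2 difference of 1.85 ± 0.99 (adjusted p = 0.337), at levels of few counts. Plxnc1 had 24.0, 38.9 and 25.4 CPM at SCI day 14, against 13.1, 16 and 9.49 CPM at SCI day 3, a log2 difference of 1.2 ± 0.27 (adjusted p = 0.188).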

How the results depend on the processing

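At day 3 the count of guidance genes called was 4, and 25 with DESeq2 and 35 with limma voom. It was 8 of 67 (against 11.0% of all genes) when 1 CPM was required in every library of a group. With the replicate block, and with only the groups compared, it was 0. Leaving out both SCI day 3 libraries low in neuronal transcripts left 1 library in that group. The same held for both SCI day 14 libraries with sensory ganglion transcripts, so no count is given for these fits. Leaving out single libraries gave 0 to 37. At day 7 limma voom gave 2, and at day 14 DESeq2 gave 1, where the count was 0. For any SCI day against sham, with a count of 0, DESeq2 gave 6, limma voom 31 and single libraries left out 0 to 20. Between days, again from 0, DESeq2 gave 1 (day 7 against day 3) and 4 (day 14 against day 3), and leaving out single libraries gave 0 to 21 and 0 to 22. For the 4 groups together, from 0, DESeq2 gave 13, limma voom 17, and single libraries left out 0 to 26. The highest count in each of these ranges came without SCI day 3 replicate 2, and the cause was not tested. Those highest counts of 37, 20, 21, 22 and 26, in the order given, are 53.6%, 29.0%, 30.4%, 31.9% and 37.7% of guidance genes, against 37.1%, 17.5%, 18.9%, 22.8% and 22.7% of all genes. No called value changed its sign. DESeq2 gave Epha10 and Sema3b no adjusted p at day 3, and 2 members dropped out under the 1 CPM filter.

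Replicate numbers did not pair the libraries: 6 of 18 same-number pairs correlated over 0.1 (r from -0.34 to 0.25), and 3 of 12 libraries correlated best with their own number, so the block removes degrees of freedom without a known pairing. The SD over a group's 3 libraries was above the Poisson counting error in 273 of 276 gene and group pairs, the exceptions being Efna2 and Epha1 at SCI day 14 and Epha3 in sham. Ntn5 had 0 counts in 1 library.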
